A study of Mus musculus with 6 samples.

Results

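Glucocorticoid-responsive genes were followed in sorted mouse choroid ECs at P5 and P30 as a group of 10 genes, chosen by symbol as the glucocorticoid receptor Nr3c1 and 9 of its known targets or partners (Tsc22d3, Fkbp5, Sgk1, Zbtb16, Mt1, Mt2, Hsd11b1, Cebpd and Errfi1). All 10 symbols were present among the 22026 listed in each of the 6 samples. Most of the group stood far higher in the older ECs. Of the 10 genes, 7 passed the limits for higher expression at P30, against 5.89% of all genes tested. None passed for higher expression at P5, against 5.82%, and the receptor itself did not pass in either direction. Among the 7, Zbtb16 entered the test through its P30 level alone and passed narrowly. The metallothioneins Mt1 and Mt2 rose most, about 30.0-fold and 46.6-fold on the scale of FPKM + 1, while Sgk1 had the highest level of the 10 at both ages.

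Glucocorticoids (corticosterone in mice) enter cells freely and bind Nr3c1, which waits in the cytoplasm in a complex of heat shock proteins and immunophilins. The loaded receptor moves to the nucleus and binds DNA as a dimer, at palindromic sites beside genes that damp inflammation, restrain growth factor signalling and feed back on the receptor. In blood vessels the hormone is known for tightening barriers and limiting angiogenesis. Rodent pups pass through an early postnatal period of low corticosterone, which ends before weaning. Hormone levels are not part of these data.

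The cells were VE-Cadherin+ ECs from mouse RPE/choroid, labelled in the living animal by an antibody injected behind the eye and then sorted. The authors name the strain, 129/B6, where they describe the P30 mice, and do not repeat it for the P5 pups. Each age had 3 independent isolations, each pooling the eyes of 7 animals, and no genetic change or experimental treatment is stated for either age. The handling did differ with age: P5 pups were anaesthetized by cooling and received a smaller amount of antibody than the P30 mice, which included both sexes. Age, anaesthesia and antibody amount therefore cannot be told apart here, and the time of day of the isolations is not given in the sources used here.

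Expression is given as FPKM, the sequenced fragments of a gene scaled to its transcript length and to the size of the library. Differences are log2 fold changes of FPKM + 1, P30 minus P5 (in log2 units), with the standard error (SE) from limma. The test covered 12481 genes whose mean FPKM reached 5 at either age. A gene passed, and is described as having risen or fallen, at an adjusted p (Benjamini-Hochberg over all genes tested) under 0.01 with at least a 2-fold difference in mean FPKM + 1. By these limits 5.89% of all genes tested passed toward P30 and 5.82% toward P5. With FPKM rescaled to the same sum in every sample, the share of passing genes that were higher at P30 moved from 50.3% to 37.1% and the median log2 fold change of all genes moved from -0.10 to -0.27. Library depth is unknown, and a value listed at 0 does not show absence.

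The endothelial markers were present in every isolation, with a summed FPKM over 8 genes of 18519 to 18951 at P5 and 25949 to 31602 at P30 (2 of 8 rose, Plvap and Flt1). Cdh5, which encodes the VE-Cadherin used for sorting, was at 2878 to 3069 at P5 and 1840 to 1943 at P30 and did not pass. Markers of other cells also moved with age. The summed FPKM of 8 RPE genes was 66.5 to 152 at P5 and 499 to 3825 at P30 (5 of 7 tested rose), that of 7 photoreceptor genes 2.21 to 8.49 and 41.8 to 361 (3 of 6 rose, with Rcvrn listed at 0 at P5), and that of 7 pericyte genes 497 to 1765 and 1872 to 6290 (0 of 7 passed). The sums were 85.0 to 173 and 302 to 1064 for 5 smooth muscle genes (1 of 4 rose), 738 to 1221 and 1813 to 4591 for 7 fibroblast genes (1 of 7 rose), 97.0 to 457 and 120 to 1251 for 5 melanocyte genes (0 of 5), and 175 to 491 and 442 to 1829 for 5 red cell genes (0 of 5). The leukocyte and macrophage sum was mostly lower at P30, at 1037 to 1418 at P5 and 319 to 1095 at P30, ranges that overlap. Of its 9 genes 3 fell, while Lyz2 and Cd14 had higher means at P30 and did not pass. Over all genes tested, 5.89% passed toward P30 and 5.82% toward P5. In sorted but bulk RNA, a change in the number of these other cells and a change in RNA per cell cannot be told apart.

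Among the 10 genes, 8 had a mean FPKM of at least 5 at both ages, and 6 of these rose. The other two, Zbtb16 and Hsd11b1, entered the test through their P30 level alone, so their difference is partly fixed by the filter. The ages did not overlap, with P30 on top, in 9 of the 10 genes, where 22.0% of all genes tested were separated in that direction and 33.0% in the opposite direction. Over the 10 genes the median log2 fold change was 2.83, 2.61 without Hsd11b1, which was listed at 0 in all P5 isolations, and -0.10 over all genes tested. All 10 fitted differences were positive, and 0 members had an unadjusted p under 0.05 toward P5 in limma.

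**Figure D1:**
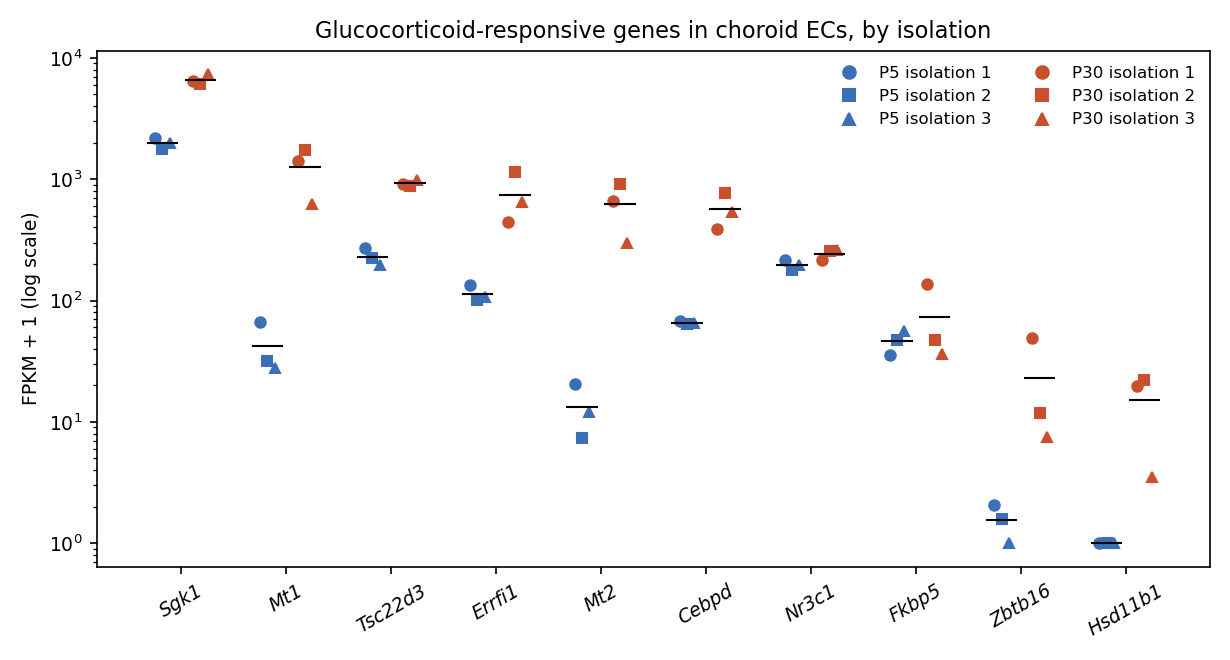
FPKM + 1 on a log axis for each of the 10 genes, ordered by P30 mean, with 1 point for each isolation (blue P5, red P30, shape by isolation number) and a black line at the mean of each age. Only Fkbp5 has P5 and P30 points that overlap. Nr3c1 is barely separated (213.43 against 213.53), and the P30 points of Tsc22d3 and Sgk1 lie close together while those of Zbtb16 and Hsd11b1 are spread over 7.50-fold and 8.44-fold.

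By level, Sgk1 stood alone at both ages, at the 99.8th percentile of listed genes at P5 and at the 99.95th at P30. At P5 the order of mean FPKM was Sgk1, Tsc22d3, Nr3c1, Errfi1, Cebpd, Fkbp5, Mt1, Mt2, Zbtb16 and Hsd11b1, in which Tsc22d3 and Nr3c1 overlapped, as did Fkbp5 and Mt1, and Zbtb16 and Hsd11b1 were both listed at 0 in isolation 3. At P30 the order was Sgk1, Mt1, Tsc22d3, Errfi1, Mt2, Cebpd, Nr3c1, Fkbp5, Zbtb16 and Hsd11b1, and the 5 genes from Mt1 to Cebpd each overlapped their neighbours, as did Fkbp5 with Zbtb16 and Zbtb16 with Hsd11b1. Mt1 moved from the 67.1st to the 99.3rd percentile of all listed genes and Mt2 from the 52.7th to the 98.2nd.

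Nr3c1, the receptor (chromosome 18, 39570199 to 39650955 of mm9, protein coding), had an FPKM of 213.43, 176.4 and 196.1 in P5 isolations 1, 2 and 3 and of 213.53, 253.9 and 258.8 in P30 isolations 1, 2 and 3. The groups thus touched, with the lowest P30 value almost equal to the highest P5 value. The log2 fold change was 0.31 (SE 0.12, 95% interval 0.03 to 0.59, adjusted p = 0.0777), which did not pass. Nr3c2, the mineralocorticoid receptor, which also binds corticosterone, did rise. Its FPKM was 8.64, 6.26 and 3.50 at P5 and 28.0, 33.5 and 34.9 at P30 (2.28 log2 units, SE 0.31, adjusted p = 0.00168). It remained several times below Nr3c1 in every isolation. Hsd11b2, the enzyme that shields Nr3c2 from corticosterone by inactivating it, was near the lower end of the files in all 6 isolations, between 0.890 and 1.97, and was below the minimum for the test.

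Tsc22d3, which encodes the leucine zipper protein GILZ, an inhibitor of inflammatory transcription factors, lies on chromosome X (137074067 to 137135198, protein coding). Its FPKM was 271.4, 222.2 and 195.2 at P5 and 918.3, 880.3 and 980.9 at P30, with means of 229.6 ± 38.6 and 926.5 ± 50.8 (SD, n = 3). All P30 isolations were within 1.11-fold of each other, the narrowest P30 spread of the 10 genes. This was a 4.06-fold rise (2.02 log2 units, SE 0.13, adjusted p = 0.000149). Of its relatives, Tsc22d1 also rose, from 1950 ± 269 to 4822 ± 842 (1.30 log2 units, SE 0.16, adjusted p = 0.00129), but not under quantile normalization (adjusted p = 0.0116), while Tsc22d2 and Tsc22d4 did not pass.

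Sgk1, the serum and glucocorticoid regulated kinase, which controls ion channels and transporters, lies on chromosome 10 (21601990 to 21719709, protein coding). Among the 250-base windows that lie just before 15 RefSeq start sites of 7 of the genes (Hsd11b1, Errfi1, Mt1, Mt2, Sgk1, Fkbp5 and Tsc22d3), 1 window of Sgk1 held the palindrome of the receptor, which is AGAACA and, 3 bases on, its reverse complement TGTTCT. Of all 32851 windows of that length in the RefSeq table (GRCm38.p6), 3 held it, or 0.00913%, the Sgk1 window included. The window was found by exact match on the plus strand of mm9 at chr10:21713446-21713695, within the annotated span of Sgk1. There it overlaps no exon, lies inside 5 annotated transcripts and ends at the base before the start of another. It is shown because Sgk1 is the most abundant of the genes and, among the 7 searched, alone held the full palindrome, printed in capitals. Nr3c1, Zbtb16 and Cebpd had no window to search.
Sgk1: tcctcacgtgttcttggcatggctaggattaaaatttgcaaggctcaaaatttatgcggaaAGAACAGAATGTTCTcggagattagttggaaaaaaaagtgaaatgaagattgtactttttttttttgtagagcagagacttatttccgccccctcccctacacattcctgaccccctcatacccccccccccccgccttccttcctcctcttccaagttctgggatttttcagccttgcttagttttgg
The palindrome runs from base -189 to base -175 before that start. The motif AGAACA alone, on either strand and counting those inside the palindrome, was in 4 of the 15 windows (3 of Sgk1 and 1 of Tsc22d3) and in 16.1% of all windows. These are matches of letters, and binding of the receptor was not measured.

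The FPKM of Sgk1 was 2183, 1758 and 2002 at P5 and 6417, 6058 and 7341 at P30. The ages were far apart, and within each age the isolations were within 1.24-fold of each other. Sgk1 rose 3.34-fold (1.74 log2 units, SE 0.13, adjusted p = 0.000213). With quantile normalization, which pulls in the highest genes, it was 1.09. Sgk1 held between 73.1% and 75.4% of the summed FPKM of the 10 genes at P5 and between 51.1% and 68.4% at P30. Sgk3 did not pass, and Sgk2 was listed at 0 in every isolation.

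Mt1 and Mt2 are metallothioneins, small cysteine-rich proteins that bind zinc and copper, and both glucocorticoids and zinc are known to induce them. They are neighbours on chromosome 8 (Mt1 at 96702989 to 96704225 and Mt2 at 96696518 to 96697467, both protein coding). The 250 bases before each start, matched exactly on the plus strand of mm9 at chr8:96702739-96702988 for Mt1 and at chr8:96696268-96696517 for Mt2, are shown because these genes changed most. Capitals mark the metal response element, searched as TGCACNC or TGCGCNC on both strands.
Mt1: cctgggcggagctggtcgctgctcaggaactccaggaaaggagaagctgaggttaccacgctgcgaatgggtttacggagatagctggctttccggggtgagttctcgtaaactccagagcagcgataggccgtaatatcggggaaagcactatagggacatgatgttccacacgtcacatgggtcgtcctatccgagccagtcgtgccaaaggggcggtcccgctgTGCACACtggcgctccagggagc
Mt2: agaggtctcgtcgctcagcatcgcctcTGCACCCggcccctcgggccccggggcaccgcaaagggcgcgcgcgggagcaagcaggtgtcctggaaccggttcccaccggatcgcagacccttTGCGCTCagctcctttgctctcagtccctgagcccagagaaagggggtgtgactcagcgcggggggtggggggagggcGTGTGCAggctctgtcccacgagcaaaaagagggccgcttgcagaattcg
Neither window overlaps an annotated exon. The Mt1 window held 1 match, at base -23, and the Mt2 window held 3, at bases -223, -128 and -50, while neither held AGAACA on either strand. Bases after each annotated start, or further before it, were not searched. The counts therefore do not describe the whole promoters or compare them. At least 1 such element was in 21.4% of all 32851 windows, and among the other members' windows in that of Hsd11b1.

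The FPKM of Mt1 was 65.2, 30.5 and 26.8 in P5 isolations 1, 2 and 3 and 1425, 1745 and 625 in P30 isolations 1, 2 and 3. Mt2 had 19.5, 6.31 and 11.0 at P5 and 666, 914 and 298 at P30. Both genes were lowest at P30 in isolation 3, which was still far above the highest P5 isolation. The rise in log2 units was 4.91 for Mt1 (SE 0.45, adjusted p = 0.000369) and 5.54 for Mt2 (SE 0.48, adjusted p = 0.000317), and these ranked 19th and 7th from the top among all 12481 genes tested. The ratio of Mt2 to Mt1 was 0.299, 0.207 and 0.411 at P5 and 0.467, 0.524 and 0.476 at P30. How reads shared by the closely related metallothionein genes were assigned is not stated, so their sum is safer than the ratio. The summed FPKM of both genes was 84.6, 36.8 and 37.9 at P5 and 2091, 2659 and 923 at P30. Mt3 had 20.6, 38.5 and 11.8 at P30 against 6.58 to 8.57 at P5 and did not pass (1.4 log2 units, SE 0.40, adjusted p = 0.0300), and Mt4 was listed at 0 throughout.

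Cebpd encodes C/EBPδ, a transcription factor of the acute phase and of adipocyte differentiation (chromosome 16, 15887379 to 15888559, typed as a pseudogene in GENCODE vM1 although it encodes a protein). Its FPKM was 67.2, 62.8 and 64.1 at P5 and 388, 770 and 535 at P30. The P5 isolations were within 1.07-fold of each other, the tightest of the group, and the lowest P30 isolation was well above them. Cebpd rose by 3.05 log2 units (SE 0.23, adjusted p = 0.000208). Of its relatives, Cebpb rose from 61.0 ± 7.41 to 729 ± 338 (3.47 log2 units, SE 0.29, adjusted p = 0.000293) and Cebpa from 15.3 ± 2.79 to 49.6 ± 10.5 (1.62 log2 units, SE 0.22, adjusted p = 0.00172), though Cebpa did not pass without P5 isolation 2 or 3 (adjusted p = 0.0108 and 0.0103). Cebpg did not pass, and Cebpe was listed at 0.

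Errfi1 encodes MIG6, a feedback inhibitor of the EGF receptor kinase (chromosome 4, 150228028 to 150243001, protein coding). Its FPKM was 133, 99.7 and 105 at P5 and 441, 1146 and 645 at P30, so that the P30 isolations differed by up to 2.60-fold while all stood above P5. Errfi1 rose by 2.61 log2 units (SE 0.32, adjusted p = 0.00110). The receptor it inhibits was scarce at both ages, with Egfr at 4.52 to 12.8 at P5 and 8.50 to 13.1 at P30. The related receptor Erbb2 was higher, at 52.5 to 64.8 at P5 and 28.4 to 37.7 at P30. It did not pass (-0.73 log2 units, SE 0.16, adjusted p = 0.0117 in limma). Erbb3 was below the minimum for the test, and Erbb4 was listed at 0 throughout. Of 8 ErbB receptors and ligands, 4 were tested and 2 rose, both of them ligands, against 5.89% of all genes tested. Hbegf rose from 287 ± 53.0 to 972 ± 177 (1.75 log2 units, SE 0.17, adjusted p = 0.000478) and Tgfa from 6.39 ± 1.61 to 25.9 ± 5.89 (1.86 log2 units, SE 0.26, adjusted p = 0.00205), the latter not passing without P5 isolation 2 or 3 (adjusted p = 0.0137 and 0.0123).

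**Figure D2:**
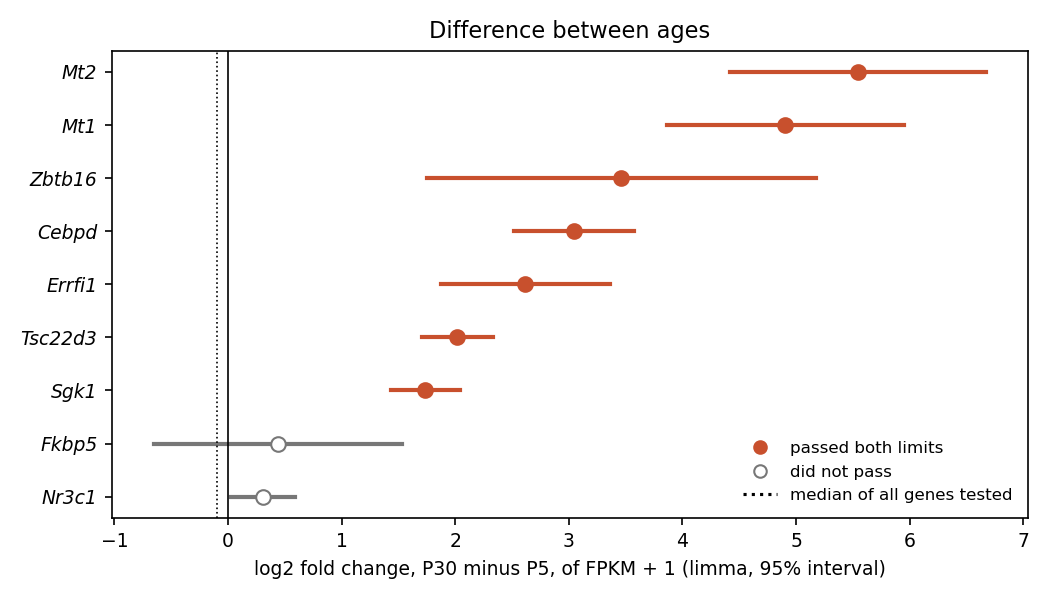
Log2 fold change of FPKM + 1, P30 minus P5, from limma with its 95% interval for 9 of the genes. Filled red points passed both limits and open grey points did not, and the dotted line is the median of all genes tested (-0.10). Hsd11b1 is left out because it was listed at 0 at P5. The intervals of Mt1 and Mt2 start at 3.86 and 4.42, that of Zbtb16 is the widest, and that of Fkbp5 spans 0.

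Fkbp5, Zbtb16 and Hsd11b1 were the members whose values turned on particular isolations. Fkbp5 encodes FKBP51, an immunophilin that lowers the hormone affinity of the receptor and closes a feedback loop (chromosome 17, 28536040 to 28654469, protein coding). Its FPKM was 34.5, 46.7 and 54.97 at P5 and 137, 46.2 and 35.2 at P30, so P30 isolation 1 alone stood above the P5 range and the other two lay within it. The log2 fold change was 0.44 (SE 0.47, 95% interval -0.65 to 1.53, adjusted p = 0.480), and without P30 isolation 1 it was -0.14 (adjusted p = 0.651). The interval leaves room for a 2.89-fold rise, so the comparison is imprecise rather than one of equal levels. Fkbp4, its counterpart that favours receptor transport, had 157 ± 19.9 and 199 ± 26.0 and did not pass (0.34 log2 units, SE 0.14, adjusted p = 0.0951).

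Zbtb16 encodes the zinc finger repressor PLZF (chromosome 9, 48462416 to 48644050, protein coding). It was listed at 1.06, 0.58 and 0 at P5 and at 48.2, 10.9 and 6.43 at P30, a 7.50-fold spread among the P30 isolations. Its difference of 3.46 log2 units (SE 0.73) passed narrowly (adjusted p = 0.00968), and it passed in only 6 of 17 alternative fits, with adjusted p between 0.00657 and 0.0418. Leaving out P30 isolation 1, the highest, gave 2.66 (adjusted p = 0.0140), and leaving out any P5 isolation or P30 isolation 2 also ended the call (adjusted p from 0.0209 to 0.0418).

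Hsd11b1 encodes the enzyme that regenerates active corticosterone from its inactive keto form inside cells (chromosome 1, 195047824 to 195090248, protein coding). It was listed at 0 in all P5 isolations and at 18.7, 21.1 and 2.5 at P30. It did not pass (adjusted p = 0.0111 in limma), but it did in 5 of 17 alternative fits. One was the fit without P30 isolation 3, the low isolation (adjusted p = 0.000948). The others were a pseudocount of 0.1, a minimum mean FPKM of 1, quantile normalization and the limit of 0.05. H6pd, which supplies that enzyme with NADPH, had overlapping ranges of 28.9 to 35.5 at P5 and 24.6 to 39.3 at P30. The steroid exporters Abcb1a and Abcb1b, which pump corticosteroids out of ECs among many other substrates, both rose. Abcb1a went from 217 ± 55.2 to 713 ± 48.4 (1.74 log2 units, SE 0.18, adjusted p = 0.000615) and Abcb1b from 38.9 ± 7.62 to 91.7 ± 20.3 (1.21 log2 units, SE 0.20, adjusted p = 0.00407). Reads shared by these closely related genes may have been split between them. Abcb1b did not pass without P5 isolation 2 or 3 (adjusted p = 0.0194 and 0.0187).

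The P30 isolations did not rank alike across the group. Isolation 1 was highest for Fkbp5 and Zbtb16, isolation 2 for Mt1, Mt2, Hsd11b1, Cebpd and Errfi1, and isolation 3 for Nr3c1, Tsc22d3 and Sgk1. Relative to the P5 mean, P30 isolations 1, 2 and 3 had 4.0, 3.83 and 4.27 times as much Tsc22d3 and 3.24, 3.06 and 3.71 times as much Sgk1. The corresponding ratios were 34.9, 42.8 and 15.3 for Mt1, 6.0, 11.9 and 8.27 for Cebpd and 3.92, 10.2 and 5.74 for Errfi1. Mt1, Mt2, Hsd11b1, Zbtb16 and Fkbp5 were all lowest in isolation 3, as were the RPE, photoreceptor, melanocyte, smooth muscle and red cell sums (5.04, 6.73, 0.536, 2.39 and 1.35 times the P5 mean in that isolation). Cebpd and Errfi1 ranked 2, 3, 1, as did the pericyte sum (1.76, 5.91 and 3.62 times the P5 mean in isolations 1, 2 and 3) and the fibroblast sum (1.72, 4.36 and 2.30). Tsc22d3 and Sgk1 ranked 3, 1, 2, as did the endothelial sum (1.65, 1.39 and 1.69 times the P5 mean in isolations 1, 2 and 3). Of the 8 genes in that sum, only Plvap, the highest of them, and Kdr ranked that way. Pecam1, Cdh5 and Emcn ranked 1, 2, 3, Tie1 and Flt1 ranked 1, 3, 2, and Tek ranked 2, 1, 3. The sum of 18 immediate early genes, described below, ranked 2, 3, 1 like Cebpd and Errfi1 (4.25, 5.40 and 4.34). The part of non-endothelial cells in the values was not tested.

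**Figure D3:**
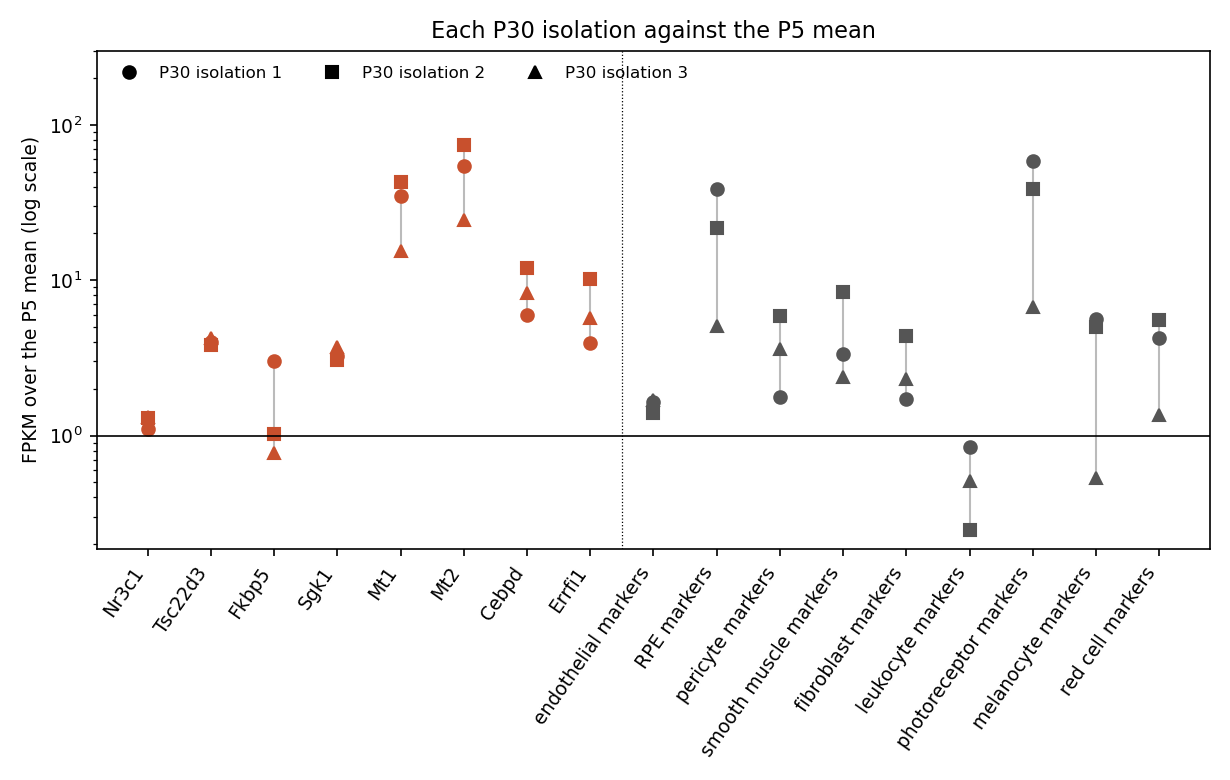
FPKM of each P30 isolation divided by the P5 mean, on a log axis, for 8 of the genes (red, left) and for the summed markers of 9 cell types (grey, right), with shapes for isolations 1, 2 and 3. Zbtb16 and Hsd11b1 are left out because 1 or more P5 isolations were listed at 0. Tsc22d3 and Sgk1 lie near 3- to 4-fold in all 3 isolations, while Mt1, Mt2 and the RPE and photoreceptor sums are lowest in isolation 3.

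At P5 the isolations also differed in common. Isolation 1 had the highest value in 8 of the 9 members above 0, against 35.7% of all genes tested, with Fkbp5 as the exception. The same isolation had the highest summed FPKM of 18 immediate early genes, 14711 against 9936 and 9524 in P5 isolations 2 and 3. This was not particular to them. Isolation 1 was also highest for the pericyte sum (1765 against 933 and 497), the melanocyte sum (457 against 118 and 97.0) and every other related list and marker sum but 2. The exceptions were the endothelial and the leukocyte and macrophage sums, both highest in isolation 2. Without P5 isolation 1, all members that had passed still did so except Zbtb16.

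The wider pathway was described with 20 further known glucocorticoid targets. Of these, 19 were tested (Tat was below the minimum), 13 rose and 0 fell, against 5.89% and 5.82% of all genes tested. None had an unadjusted p under 0.05 toward P5 in limma. Klf15, Bcl6 and Lcn2, all among the 13, entered the test through their P30 level alone, so their difference is partly fixed by the filter. The list was chosen with earlier results of these data known. In 15 of the 19 the P30 isolations all lay above P5, against 22.0% of all genes tested. The median log2 fold change was 2.10, or 1.49 without the genes listed at 0 at P5. The largest rise was that of Cdkn1a, a cyclin-dependent kinase inhibitor, from 86.8 ± 17.9 to 1448 ± 155 (4.06 log2 units, SE 0.16, adjusted p = 3.3e-05). Klf9, a zinc finger factor of glucocorticoid feedforward loops, rose from 43.1 ± 4.79 to 515 ± 147 (3.52 log2 units, SE 0.20, adjusted p = 9.2e-05). Per1, which is both a glucocorticoid target and a core clock gene, rose from 58.0 ± 13.3 to 529 ± 126 (3.16 log2 units, SE 0.22, adjusted p = 0.000167). Dusp1, the phosphatase that switches off MAP kinases, rose from 1352 ± 259 to 6105 ± 577 (2.19 log2 units, SE 0.16, adjusted p = 0.000181).

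Other targets in that list depended on fewer isolations or did not pass. Irs2, an adaptor of the insulin receptor, had 43.7, 148.8 and 44.2 at P30 against 3.57 to 8.64 at P5 (3.36 log2 units, SE 0.51, adjusted p = 0.00261), and did not pass without P5 isolation 2 or 3 (adjusted p = 0.0137 and 0.0162). Lcn2, an iron-scavenging lipocalin, was listed at 0 at P5 and at 3.82, 24.8 and 10.7 at P30 (adjusted p = 0.00697), and passed in 9 of 17 alternative fits. The targets Pdk4, Angptl4, Cdkn1c, Sult1a1, Anxa1 and Pik3r1, named here after their values had been seen, did not pass.

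**Figure D4:**
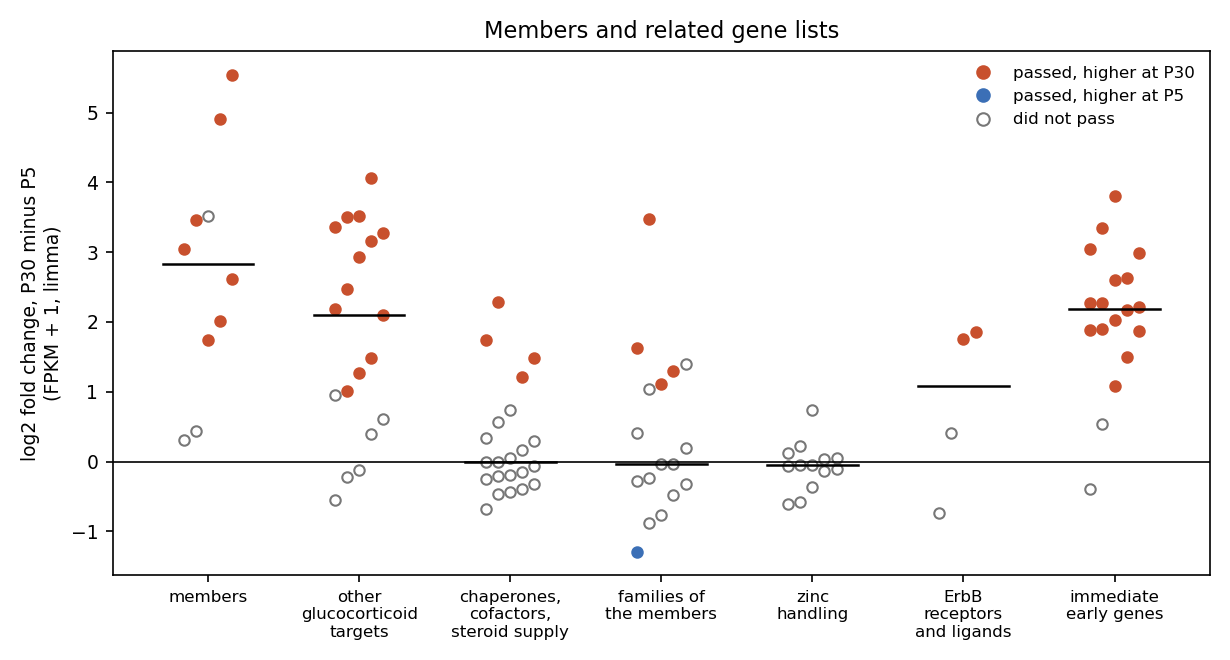
Log2 fold change of FPKM + 1, P30 minus P5, for each tested gene of the 10 members and of 6 related lists, with the list median as a black line. Filled red points passed for P30, filled blue for P5, and open grey points did not pass. Genes listed at 0 at P5 (Hsd11b1, Klf15 and Lcn2) are drawn at fitted values that depend on the added 1. The medians of the members, other targets and immediate early genes lie above 2, and those of the chaperone, family and zinc lists lie near 0. Without the genes listed at 0 at P5, the median of the other targets is 1.49.

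Many of these targets are also induced by growth factors, cytokines and cell stress, Sgk1, Cebpd, Errfi1, Dusp1 and Per1 among them. Immediate early genes, which respond within minutes to such stimuli and to tissue dissociation, rose as well. Of 18, 16 rose and 0 fell, against 5.89% and 5.82% of all genes tested. Their median log2 fold change was 2.19, against -0.10 over all genes tested. The summed FPKM of the 18 was 9524 to 14711 at P5 and 48447 to 61535 at P30. The largest rises were those of the transcription factors Atf3 (3.81, SE 0.30, adjusted p = 0.000255), Nr4a1 (3.05, SE 0.25, adjusted p = 0.000284) and Egr3 (2.98, SE 0.32, adjusted p = 0.000626) and of the growth suppressor Btg2 (3.35, SE 0.16, adjusted p = 6.2e-05). Their part in the rise of the glucocorticoid targets was not tested.

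The machinery around the receptor was mixed. Of 23 chaperones, cofactors and genes of steroid supply, 22 were tested and 4 rose, which were Nr3c2, Abcb1a, Abcb1b and the heat shock co-chaperone Dnajb1 (176.5 ± 16.1 to 498 ± 78.4, 1.48 log2 units, SE 0.14, adjusted p = 0.000408). That share exceeds the 5.89% of all genes tested that were higher at P30. None fell, although 4 had an unadjusted p under 0.05 toward P5 in limma, and the median log2 fold change was -0.01. Among 20 relatives of the members, 17 were tested, 4 rose and 1 fell, against 5.89% and 5.82% of all genes tested. The one that fell was Fkbp10, a collagen-folding immunophilin of the endoplasmic reticulum, from 398 ± 28.8 to 164 ± 33.9 (-1.29 log2 units, SE 0.16, adjusted p = 0.00117).

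Because metallothioneins also answer zinc, 13 zinc-handling genes were set beside them. None passed in either direction in limma, which in a list of this size is near the 5.89% and 5.82% of all genes tested, and 3 had an unadjusted p under 0.05 toward P5. Mtf1, the zinc sensor that activates Mt1 and Mt2, had overlapping ranges of 14.9 to 17.2 at P5 and 15.5 to 22.2 at P30. Slc30a1, a zinc exporter that Mtf1 also activates and that was singled out after its values had been seen, had 118 to 129 at P5 and 193 to 215 at P30. Its log2 fold change was 0.74 (SE 0.10, adjusted p = 0.00146), under the 2-fold limit. The part of zinc in the rise of Mt1 and Mt2 was not tested.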

How the data were processed

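TruSeq libraries were read on a HiSeq2000. The authors used TopHat for alignment (mm9) and CuffLinks, corrected for GC content and scaled to the upper quartile, for FPKM, and deposited 1 FPKM value per gene symbol and isolation. The versions of both tools and the gene annotation are not given in the sources used here. The htseq-count tables that the authors tested with DESeq2 are not analysed here, so depth is unknown and no counting error is given. From the deposited FPKM, log2(FPKM + 1) was tested with limma 3.58.1 in R 4.3.3 (eBayes with a trend, no block) for every gene whose mean FPKM reached 5 at either age. Passing took a Benjamini-Hochberg adjusted p below 0.01 together with a 2-fold difference in mean FPKM + 1. The fit was tested on simulated data. The p-values rest on 3 isolations per age. Other steps used Python 3.11.15 and pandas 2.3.3.

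Ages and isolation numbers came from the sample labels. The members and gene lists were chosen with earlier results of these data known. A listed marker gene is not reported here. All 10 members were named, and of each other list at most the 4 passing genes with the largest log2 fold change plus genes whose role the text turns on. Gene positions are those of GENCODE vM1 on mm9, matched by symbol. Windows before start sites came from RefSeq (GRCm38.p6), in which 7 of the 10 members matched and Nr3c1, Zbtb16 and Cebpd did not, and were placed on mm9 by exact match. Alternatives were other pseudocounts, minima, scalings and limits, no trend, a replicate block, and each isolation left out.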

Additional observations from a re-analysis of the deposited data

How the results depend on the processing

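The number of members higher at P30 was 7 and lay between 6 and 8 in all 17 alternatives, and 0 members were higher at P5 in any of them. Tsc22d3, Sgk1, Mt1, Mt2, Cebpd and Errfi1 passed in all 17, and Nr3c1 in none. Fkbp5 ranged from -0.14 to 0.82 (log2 fold change) when 1 isolation was left out, negative only without P30 isolation 1, because the high sample was then gone. The other targets higher at P30 numbered 13 and between 9 and 13 in the alternatives, lowest without P5 isolation 3. Over all genes, 735 passed toward P30 and 726 toward P5. An adjusted p under 0.05 gave 1130 for P30, by its wider limit. Leaving out 1 isolation gave from 396 (without P5 isolation 3, with 404 without P5 isolation 2) to 849 for P30, and from 291 (without P5 isolation 2, with 297 and 427 without P5 isolations 3 and 1) to 754 for P5, with fewer samples in the fit. With the replicate number as a block, 7 members, 585 genes for P30 and 524 for P5 passed. The numbers are not stated to pair the samples, the deviations of same-numbered isolations correlated at -0.0618, -0.0905 and -0.0305, and 0 of 6 samples correlated best with their own number. The block ended the calls of Abcb1b (adjusted p = 0.0143), Lcn2 (adjusted p = 0.0168) and Klf15, which left 11 of the other targets. The unknown depth limits genes at low FPKM most, Zbtb16, Hsd11b1 and Lcn2 among them.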
